A study of Mus musculus with 6 samples.

Results

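The small proline-rich proteins are encoded by the Sprr genes, and 10 of these genes are described here in the pregnant mouse uterus: Sprr1a, Sprr1b, Sprr2a1, Sprr2b, Sprr2d, Sprr2e, Sprr2f, Sprr2g, Sprr2h and Sprr3. They were taken by gene family from the 20145 genes named on the array, and every probe assigned to them by its RefSeq transcript was followed on all 6 arrays. The family was singled out because of its difference between the genotypes compared below, so that difference is given for its members as a description, with standard errors but no p-value. The arrays measured RNA of whole uterine tissue from females in natural pregnancy at gestation day 3.5, mated at 8 to 10 weeks of age, with embryos removed. All females carried floxed alleles of Sox17, which encodes an HMG-box transcription factor. The 3 Sox17f/f uteri carried no recombinase, whereas the 3 Sox17ed/ed uteri also carried 1 LtfiCre allele, in which the lactoferrin promoter drives the iCre recombinase in uterine epithelium from puberty on, so that the gene was not targeted in stroma, muscle or vessels. In RNA of whole tissue, fewer cells of a type and less RNA per cell cannot be told apart.

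Small proline-rich proteins are short proteins with proline-rich repeats that transglutaminases cross-link into the cornified envelope, the protein shell under the membrane of differentiating squamous cells. Their genes lie side by side in the epidermal differentiation complex, together with the genes of involucrin, loricrin, filaggrin, the late cornified envelope proteins and many S100 proteins. In the mouse uterus, Sprr2 genes are known as genes that estrogen induces in the epithelium, although this epithelium is simple and does not cornify.

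All 6 arrays came from 1 slide, with each genotype in its own line, so the line on the slide and the genotype cannot be told apart. Between 56.8% and 65.7% of the spots that were no controls were well above background on an array by the scanner software, and no spot was marked as saturated. Sox17 itself had normalized log2 signals of 12.21, 12.07 and 12.22 in the Sox17f/f and of 9.75, 9.59 and 9.81 in the Sox17ed/ed uteri at 1 of its probes, a log2 difference of -2.45. The other Sox17 probe differed by -2.97 in log2, so every library matched its labelled genotype. All 12 uterine epithelial, 8 stromal and 7 smooth muscle marker genes were well above background on every array. Throughout, levels are normalized log2 signals of 1 probe, and differences are Sox17ed/ed minus Sox17f/f, so 1 log2 unit is a doubling.

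Of the 10 genes, 9 had a probe, 1 each, and Sprr2a1 had none under its own transcript. Probes of 6 members were well above background on at least 1 array, and those of Sprr1b, Sprr2b and Sprr3 on none. Sprr1a, Sprr2f and Sprr2g were well above background on all 6 arrays. Genes entered the comparison over the whole array when their probe was well above background on at least 3 arrays, which 5 members did. Of these 5, Sprr2d and Sprr2e entered through the Sox17ed/ed arrays alone, and a gene that enters in this way has to differ.

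Promoter sequences of the Sprr2 genes are shown because these tandem genes have related promoters and yet their probes differed in signal. Levels are, however, not comparable between probes. The windows run from 250 bases before to 50 bases after the RefSeq start site in GRCm38.p6, all on the plus strand, and are written 5' to 3'. They lie at chr3:92364937-92365236 for Sprr2f, chr3:92338890-92339189 for Sprr2d, chr3:92351893-92352192 for Sprr2e and chr3:92316455-92316754 for Sprr2b, whose probe was never well above background. Capitals mark the TATA box (TATAAA), the core that SOX factors bind (ACAAT, or ATTGT on the other strand) and the AP-1 element (TGANTCA).
Sprr2f: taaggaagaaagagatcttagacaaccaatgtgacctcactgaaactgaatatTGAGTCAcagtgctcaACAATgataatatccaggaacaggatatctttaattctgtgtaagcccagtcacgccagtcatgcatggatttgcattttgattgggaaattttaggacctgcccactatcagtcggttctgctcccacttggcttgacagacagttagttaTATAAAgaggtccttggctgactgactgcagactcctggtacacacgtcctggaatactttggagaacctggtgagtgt
Sprr2d: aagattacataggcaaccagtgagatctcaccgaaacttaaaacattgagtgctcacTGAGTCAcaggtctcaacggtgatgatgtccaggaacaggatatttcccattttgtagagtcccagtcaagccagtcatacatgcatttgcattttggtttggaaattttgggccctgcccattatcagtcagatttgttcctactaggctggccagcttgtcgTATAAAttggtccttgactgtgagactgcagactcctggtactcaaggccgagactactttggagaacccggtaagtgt
Sprr2e: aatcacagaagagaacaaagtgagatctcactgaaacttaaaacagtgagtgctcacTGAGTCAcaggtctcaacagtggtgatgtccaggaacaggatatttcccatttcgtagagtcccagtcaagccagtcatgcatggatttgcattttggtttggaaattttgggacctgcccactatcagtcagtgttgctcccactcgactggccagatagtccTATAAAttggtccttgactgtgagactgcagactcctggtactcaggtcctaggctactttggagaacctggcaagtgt
Sprr2b: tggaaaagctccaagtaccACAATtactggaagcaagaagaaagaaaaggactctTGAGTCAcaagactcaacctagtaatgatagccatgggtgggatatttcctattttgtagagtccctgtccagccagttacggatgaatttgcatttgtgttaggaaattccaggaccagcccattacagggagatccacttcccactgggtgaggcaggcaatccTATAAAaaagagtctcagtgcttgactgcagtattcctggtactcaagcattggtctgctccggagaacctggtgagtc

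Sprr2f had the largest difference of the family. In the 3 Sox17f/f uteri its log2 signals were 10.76, 11.43 and 10.98, and in the 3 Sox17ed/ed uteri they were 17.13, 16.91 and 17.04. The groups were far apart, and the lowest Sox17ed/ed array lay above the highest Sox17f/f array. Before normalization, the processed signals were 1675, 2924 and 2138 in Sox17f/f against 144092, 115740 and 124169 in Sox17ed/ed uteri, on the linear scale of the scanner. The means were 11.06 ± 0.34 and 17.02 ± 0.11 (SD, n = 3 each), a log2 difference of 5.97 with a standard error of 0.18. As a fold this is 62.7, the 10th highest difference among the 14847 genes compared. The Sox17ed/ed signals lay near the top of the array, and whether this limits the fold was not tested.

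Sprr2d and Sprr2e, the neighbours of Sprr2f in the gene order, were detected only in the uteri without epithelial Sox17. For Sprr2d, log2 signals were 1.71, 2.93 and 1.69 in Sox17f/f, where none was well above background, and 5.25, 5.02 and 5.56 in Sox17ed/ed uteri, where all were. Sprr2e showed 2.16, 1.71 and 1.68 in Sox17f/f uteri, again none of them well above background, and 4.66, 5.17 and 4.74 in Sox17ed/ed uteri. Neither gene overlapped between genotypes, but the Sox17f/f levels are only bounds. Against the lowest signal that counted as well above background on each Sox17f/f array, Sprr2d was at least 3.15-fold higher and Sprr2e at least 2.35-fold higher in Sox17ed/ed uteri. With the measured signals taken as they were, the log2 differences were 3.17 with a standard error of 0.36 for Sprr2d and 3.00 with a standard error of 0.19 for Sprr2e. With normexp background correction, these were 0.75 and 0.61, still on the higher side. Both lie under the at-least folds, which are 1.66 and 1.23 in log2, so those folds hold for the main processing only.

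Sprr2g, annotated as a transcribed pseudogene, and Sprr1a, which encodes the other main class of these envelope precursors, were detected in both genotypes with overlapping arrays. Sprr2g had log2 signals of 11.47, 12.30 and 10.74 in Sox17f/f and of 10.74, 10.76 and 11.02 in Sox17ed/ed uteri. Its mean was 11.50 ± 0.78 against 10.84 ± 0.16 (SD, n = 3 each), and its log2 difference was -0.67 with a standard error of 0.37. The Sox17ed/ed values lay in the lower part of the Sox17f/f range. Sprr1a had log2 signals of 4.78, 5.70 and 3.83 in Sox17f/f and of 5.85, 5.56 and 5.45 in Sox17ed/ed uteri, 4.77 ± 0.93 against 5.62 ± 0.21 (SD, n = 3 each). The Sprr1a log2 difference was 0.85 with a standard error of 0.45. Single control uteri moved both values, Sprr2g to -0.27 without Sox17f/f replicate 2 and to -1.05 without replicate 3, and Sprr1a to 1.30 and 0.40.

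**Figure D1:**
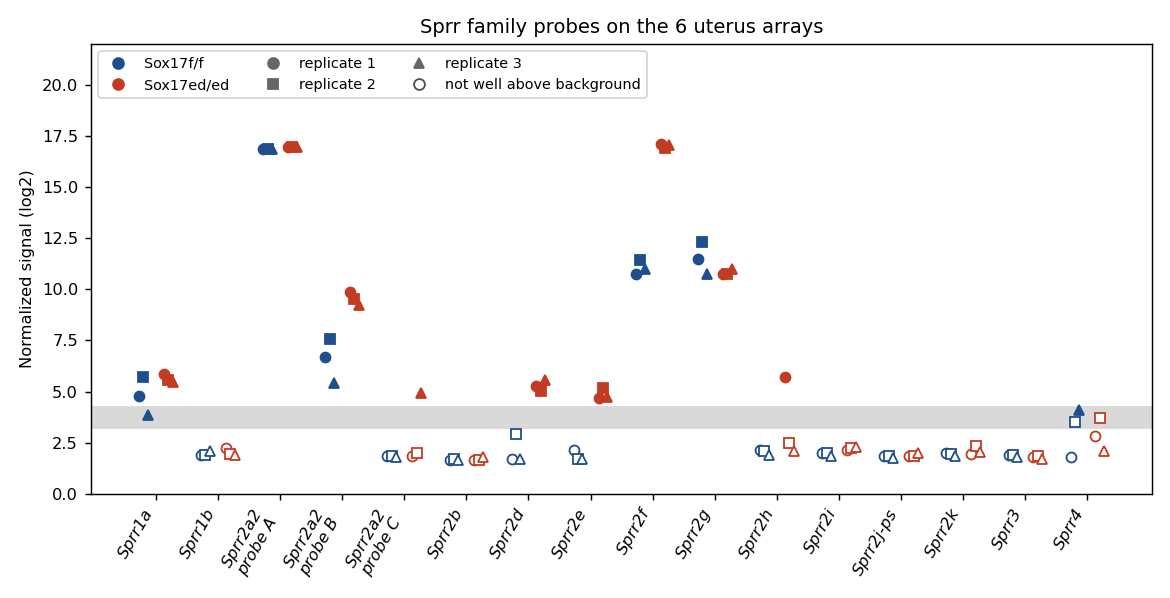
Normalized log2 signal (vertical axis) of each Sprr probe (horizontal axis) on the 6 arrays, blue for Sox17f/f and red for Sox17ed/ed, with filled symbols where the spot was well above background, open symbols where it was not, and a grey band from the lowest to the highest array for the dimmest signal well above background. Sprr2f sits between 10.76 and 11.43 in Sox17f/f and between 16.91 and 17.13 in Sox17ed/ed uteri, Sprr2d and Sprr2e are filled in Sox17ed/ed uteri alone, and the probes of Sprr1b, Sprr2b, Sprr2i, Sprr2j-ps, Sprr2k and Sprr3 lie wholly under the band. Levels are comparable between arrays but not between probes.

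Sprr2h was well above background on 1 array. Its log2 signals were 2.13, 2.11 and 1.88 in Sox17f/f and 5.70, 2.47 and 2.07 in Sox17ed/ed uteri, so that Sox17ed/ed replicate 1 stood alone, with a processed signal of 52.7 against 5.16 and 4.03 on the other Sox17ed/ed arrays. No fold is given, since 5 of the 6 arrays hold only a bound. Sprr1b lay between 1.88 and 2.23 in log2 on all 6 arrays, Sprr2b between 1.64 and 1.82, and Sprr3, which encodes a larger member found in esophageal and other internal squamous epithelia, between 1.68 and 1.91. None of these values was well above background, so these 3 genes were not detectable in either genotype.

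Past the thresholds used for all genes, an unadjusted p under 0.01 in limma with a fold of at least 1.4, lay 12.5% of all genes, with 6.04% of all genes higher and 6.47% lower in Sox17ed/ed uteri. Sprr2d, Sprr2e and Sprr2f were past these thresholds, all higher, and Sprr1a and Sprr2g were not. Arrays of the genotypes did not overlap for 40.6% of all genes, and for 19.6% with Sox17ed/ed on the higher side, which was the case for the same 3 members. As the family was chosen on this contrast, nothing is read from these counts.

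Among the family genes outside the 10, Sprr2a2 had 3 probes that disagreed. The brightest gave 16.88, 16.87 and 16.88 in Sox17f/f and 16.94, 16.94 and 16.96 in Sox17ed/ed uteri. Its log2 difference was 0.07, at a signal near the top of the array, and it turned to -0.01 with normexp background correction. A second probe gave 6.67, 7.57 and 5.44 in Sox17f/f against 9.85, 9.52 and 9.21 in Sox17ed/ed uteri, a log2 difference of 2.97 with a standard error of 0.56 and no overlap. The third was well above background only on Sox17ed/ed replicate 3, at 4.94. The reading of Sprr2a2 therefore depends on the probe. Its promoter is the same as that of Sprr2a1 in all 300 bases, and probe sequences were not used here, so whether these probes also read Sprr2a1, which has no probe of its own, was not tested. The same holds for any reading of 1 Sprr2 copy by the probe of another.

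The remaining copies were silent at this sensitivity or nearly so. The probes of Sprr2i, Sprr2j-ps and Sprr2k were not well above background on any array, and Sprr4 was so only on Sox17f/f replicate 3, at 4.12. Sprr2a3 and Sprr2c-ps had no probe named by their transcripts. Over the 17 family genes of the gene table, 14 had a probe, 8 were well above background on at least 1 array, and 6 on none.

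Levels of the detected Sprr probes also varied among the control uteri. Of the 5 family probes well above background on all 6 arrays, 4 had their highest Sox17f/f signal in replicate 2, which was the highest for 33.2% of all genes, and 3 had their lowest in replicate 3, which was the lowest for 35.8%. The spread was wider in Sox17f/f than in Sox17ed/ed uteri for 4 of the 5 probes, against 48.7% of all genes. The SD of the Sox17f/f arrays was 4.48 times that of the Sox17ed/ed arrays for Sprr1a, 3.14 times for Sprr2f, 5.02 times for Sprr2g and 3.36 times for the second Sprr2a2 probe. Sprr1a, Sprr2g and this Sprr2a2 probe shared the order of the control uteri, with replicate 2 highest and replicate 3 lowest, whereas replicate 1 was lowest for Sprr2f. With 3 arrays per genotype these orders are descriptions only.

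The genes whose pattern over the 6 arrays was most like that of Sprr2f were Ltf, Aldh1a3, Prap1, Nhlrc4 and Calml3. Likeness was the root mean square difference in log2 after each gene was centred on its Sox17f/f mean. It was 0.29 for Ltf, which encodes the secreted iron-binding protein lactoferrin, 0.31 for Aldh1a3, an enzyme of retinoic acid synthesis, 0.32 for Prap1, 0.32 for Nhlrc4 and 0.38 for Calml3, a calmodulin-like protein of epithelia. Their log2 differences were 5.63, 6.12, 5.83, 5.75 and 5.81, all on the higher side in Sox17ed/ed uteri. Nhlrc4 was not well above background in any Sox17f/f uterus, so its value there is a bound. Since the difference between genotypes dominates this measure, these are genes with a difference of like size.

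The Sprr genes occupy 1 stretch of the epidermal differentiation complex on chromosome 3, in the order Sprr2a1, Sprr2a2, Sprr2a3, Sprr2b, Sprr2c-ps, Sprr2d, Sprr2e, Sprr2f, Sprr2g, Sprr2h, Sprr2i, Sprr2j-ps, Sprr2k, Sprr1b, Sprr3, Sprr1a and Sprr4, with 3 other genes among them. Sprr2d, Sprr2e and Sprr2f, the 3 members past the thresholds, are adjacent, and Sprr2g follows next. From S100a1 to S100a10 the complex holds 101 genes, of which 26 were compared. Without the Sprr genes, 84 remain, 20 were compared, and 1 passed the thresholds, S100a14, which is 5.0% against 12.5% of all genes. Sprr2a2, which lies apart from Sprr2d with Sprr2a3, Sprr2b and Sprr2c-ps between them, entered this count with its brightest probe. It passes the thresholds with the mean of its probes, at a log2 difference of 1.52. That mean averages 2 probes that disagreed, at 0.07 and 2.97, so it is no firmer reading than either.

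**Figure D2:**
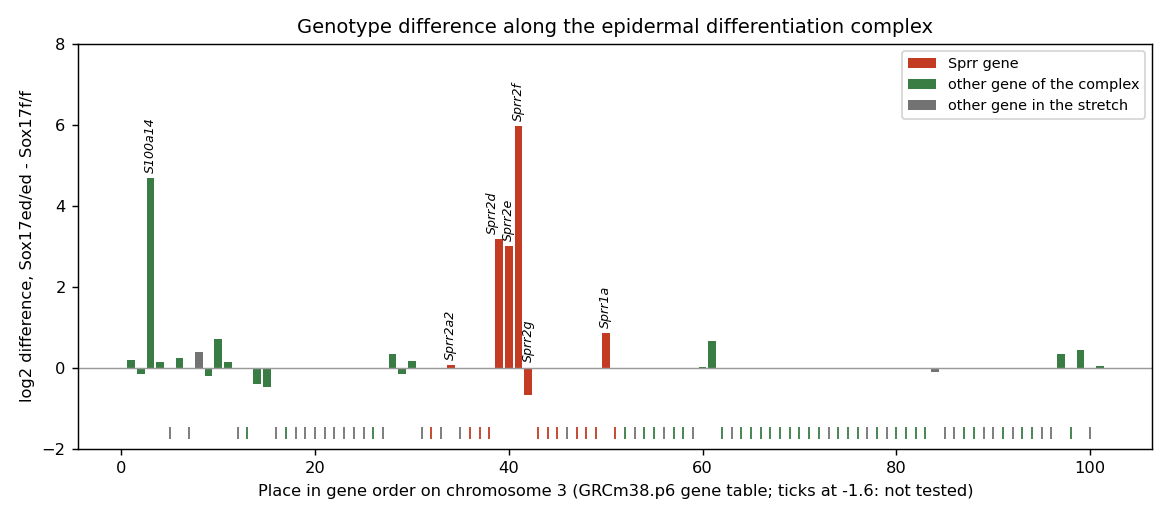
Log2 difference between Sox17ed/ed and Sox17f/f uteri (vertical axis) for the 101 genes from S100a1 to S100a10 in their order on chromosome 3 (horizontal axis, by rank and not by distance), with Sprr genes in red, other genes of the complex in green and further genes in grey. Bars are the 26 genes compared, and ticks at the bottom are genes that were not. The tall bars are S100a14 at 4.69, Sprr2d at 3.17, Sprr2e at 3.00 and Sprr2f at 5.97, and the bar of Sprr2a2 is its brightest probe, at 0.07.

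Among other genes of the epidermal differentiation complex, S100a14 passed the thresholds. Of 50 listed, 44 were on the array, 18 were compared and 1 rose, which is 5.56% of those compared against 12.5% of all genes, with a median log2 difference of 0.16 against a median of -0.0016 for all genes. An unadjusted p under 0.05 was found for 5 of the 18 and an adjusted p under 0.05 for 2. S100a14, which encodes an S100 protein of simple and stratified epithelia, rose from 4.27 ± 0.58 to 8.96 ± 0.19 (SD, n = 3 each), with a log2 difference of 4.69, a standard error of 0.29 and a limma adjusted p = 0.000189, and it was well above background on 2 of the 3 Sox17f/f arrays. S100a11, another S100 gene, differed by 0.43 with an adjusted p = 0.00678, under the fold threshold. Lor, the gene of loricrin, the main protein of the epidermal envelope, had a log2 difference of 0.33 with an adjusted p = 0.0636. Ivl, the gene of involucrin, was not compared, since its probe was well above background on too few arrays, and Flg, the gene of filaggrin, was not named on the array.

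Genes that assemble the envelope, among them the transglutaminases that join small proline-rich proteins to it, went both ways. Of 21 compared, 3 rose and 2 fell, 23.8% against 12.5% of all genes, with a median log2 difference of 0.11. Tgm1, the membrane-bound transglutaminase of keratinocytes, fell by 1.13 on the log2 scale with a standard error of 0.07 and an adjusted p = 0.000208, but by only 0.38 with normexp, which is under the fold threshold. Dsp, the gene of the desmosomal linker desmoplakin, rose by 0.92 (adjusted p = 0.00198), and Evpl, the gene of the envelope scaffold envoplakin, was the third gene that rose, by 0.82. Tgm5, a second keratinocyte transglutaminase, rose by 1.74 (adjusted p = 0.0316), with 2 of 3 Sox17f/f arrays well above background, a call lost without Sox17f/f replicate 3 or any 1 of the Sox17ed/ed arrays, at adjusted p values from 0.0654 to 0.0988. Serpinb5, the gene of maspin, fell by 1.93 (adjusted p = 0.0326), a call lost without Sox17f/f replicate 1 or any 1 of the Sox17ed/ed arrays, at adjusted p values from 0.0772 to 0.103.

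Regulators of squamous genes also went both ways. Of 26 compared, 5 rose and 6 fell, 42.3% against 12.5% of all genes, with a median log2 difference of -0.06. Grhl3, a grainyhead factor needed for the epidermal barrier, was not well above background in any Sox17f/f uterus and reached 7.47, 6.94 and 7.52 in Sox17ed/ed uteri. It was at least 12.9-fold higher there. Grhl3, counted among the 5 that rose, entered the comparison through the Sox17ed/ed arrays alone, so it has to differ. Zfp750, a factor of late keratinocyte differentiation, rose by 2.04 (adjusted p = 0.0149), with 1 of 3 Sox17f/f arrays well above background, and Ehf, an ETS factor of epithelia, rose by 1.47 (adjusted p = 8.60e-05). Hopx, an atypical homeodomain protein, fell by 2.08 (adjusted p = 7.11e-05). Elf3, an ETS factor known to act on Sprr promoters, differed by 0.61 with an adjusted p = 0.0613.

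The master regulator of stratified epithelium, Trp63, gave a different answer with each of its 2 probes. The brighter probe had 11.51, 11.38 and 11.24 in Sox17f/f and 11.16, 11.39 and 11.24 in Sox17ed/ed uteri, a log2 difference of -0.12. The dimmer probe, assigned to another transcript of the gene, was not well above background in Sox17f/f uteri, at 3.25, 3.16 and 3.12, and read 7.88, 7.87 and 7.65 in Sox17ed/ed uteri. By this probe Trp63 was at least 18.1-fold higher in Sox17ed/ed uteri, which is 4.18 in log2. With normexp background correction the log2 difference of this probe was 2.04, so that fold holds for the main processing only.

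Estrogen-responsive uterine genes, the class in which Sprr2 genes are usually placed, moved mostly upward. Of 19 compared, 11 rose and 1 fell, 63.2% against 12.5% of all genes, with a median log2 difference of 1.52. Several of them, Clca1, Fzd10, Greb1, Igfbp5, Wnt4, Ltf and Muc1, were picked by the study on these same uteri, so the count is not independent evidence of a direction. Clca1, a secreted chloride channel regulator, rose by 10.94 (adjusted p = 3.42e-05), and was well above background on 1 of the 3 Sox17f/f arrays. Ltf rose by 5.63 with a standard error of 0.15 (adjusted p = 1.16e-05), and Lcn2, the gene of the iron-sequestering lipocalin 2, by 3.76 (adjusted p = 0.00103). Cyp26a1, an enzyme that degrades retinoic acid and is better known for its induction by progesterone, fell by 3.49 (adjusted p = 0.0165).

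**Figure D3:**
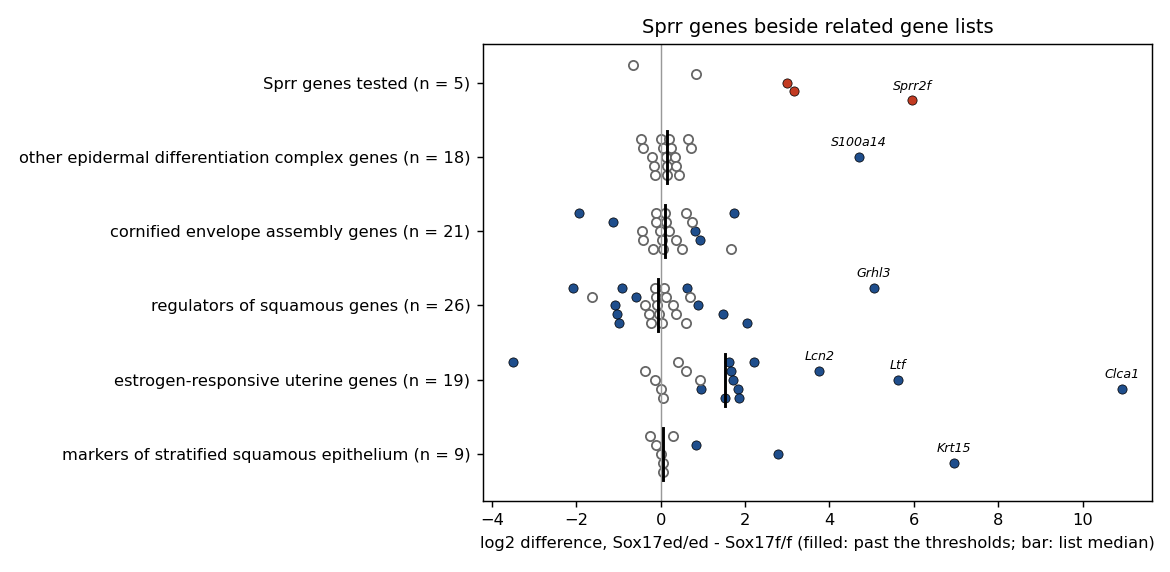
Log2 difference between Sox17ed/ed and Sox17f/f uteri (horizontal axis) for each gene compared, by list (rows), with filled points for genes past the thresholds, open points for the others and a bar at the median of each list other than the Sprr genes. Sprr2f at 5.97 and the 2 members near 3 lie to the right, S100a14 is alone among other genes of the complex, and medians run from -0.06 for the regulators to 1.52 for the estrogen-responsive genes.

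Markers of stratified squamous epithelium, the tissue in which most Sprr genes are used, were present in part. Of 16 listed, 9 were compared and 3 rose, 33.3% against 12.5% of all genes, with a median log2 difference of 0.06. The count was 5 with the mean of a gene's probes, which added Trp63 (log2 difference 2.25, adjusted p = 3.34e-05) and Krt13 (adjusted p = 0.0230), and 0 where all 6 arrays had to be well above background. Krt15, a keratin of basal cells, was not well above background in Sox17f/f uteri and was at least 62.8-fold higher in Sox17ed/ed uteri. Krt15 and Krt5, counted among the 3 that rose, entered the comparison through the Sox17ed/ed arrays alone, so both have to differ. Krt5, the basal keratin that defines this tissue, was likewise not well above background in Sox17f/f uteri at the probe compared, although another Krt5 probe was so on 1 Sox17f/f array. The compared probe read 7.80, 4.94 and 5.33 in Sox17ed/ed uteri, at least 5.25-fold higher, with Sox17ed/ed replicate 1 the highest. The limma call of Krt5, at adjusted p = 0.0446, was lost without any 1 Sox17f/f array or without Sox17ed/ed replicate 3. Adjusted p values were then from 0.0754 to 0.121. Col17a1, a hemidesmosomal collagen, rose by 0.83 (adjusted p = 0.0204), a call lost without Sox17ed/ed replicate 1 or 2, at 0.0721 and 0.0656.

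Krt1 and Krt6b, which mark suprabasal layers, were not well above background on any array, and Dsg3 only on 1 Sox17ed/ed array, at the dimmer of its probes. Krt4, Krt6a, Krt78 and Krtdap were so only on 1 Sox17f/f array each. The 6 other markers compared did not pass the thresholds at the probe compared. Their log2 differences were 0.30 for Krt14, 0.01 for Krt10, 0.06 for Krt13, -0.25 for Krt16, 0.05 for Krt17 and -0.12 for Trp63. The summed normalized signal of the 16 squamous markers, on the linear scale, ran from 3147 to 3618 in Sox17f/f and from 3894 to 4431 in Sox17ed/ed uteri. Most of each sum was the brighter Trp63 probe, with its log2 difference of -0.12, so the sums say little of the other markers. Their part in the Sprr values was not tested. Krt5 had its highest Sox17ed/ed signal in replicate 1, as did Sprr1a, Sprr2f, Sprr2h and the second Sprr2a2 probe, whereas Sprr2d and Sprr2g were highest in replicate 3 and Sprr2e in replicate 2.

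Markers of other cells of the uterus are given beside the same share, 12.5% of all genes. Of the 12 uterine epithelial markers, 5 rose and 2 fell, which is 58.3%, with a median log2 difference of 0.34. Their summed signals ran from 55586 to 58793 in Sox17f/f and from 56423 to 69456 in Sox17ed/ed uteri. Krt19 rose by 2.10 and Krt7 by 1.46, and Cldn3 fell by 1.16. None of 8 stromal markers passed the thresholds in limma, although 5 had an unadjusted p under 0.05 and 2 an adjusted p under 0.05, and their summed signals were 299750 to 301230 and 266200 to 286140. Of 7 smooth muscle markers, only Actg2 passed, falling by 0.64, which is 14.3% and near the share of all genes. In limma, however, 5 of the 7 had an unadjusted p under 0.05 and 2 an adjusted p under 0.05, with a median log2 difference of -0.29. The smooth muscle sums were 469530 to 516590 and 341360 to 412360. Of 8 neutrophil markers compared, Ltf and Lcn2 rose, which is 25.0%, and uterine epithelium also makes both. The neutrophil sums were 2975 to 3136 in Sox17f/f and 23575 to 25841 in Sox17ed/ed uteri, and only the Sox17ed/ed sums are mostly those of Ltf and Lcn2. Of the 11 neutrophil markers on the array, 8 were well above background on all 6 arrays, while Mmp8 was so on none. Ly6g was not named on the array. The 6 other neutrophil markers compared did not pass the thresholds. Their log2 differences were -0.41 for S100a8, -0.46 for S100a9, 0.18 for Camp, 0.97 for Retnlg, -0.16 for Elane and -0.35 for Mpo. The part of these cell types in the Sprr values was not tested.

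In sequence, the Sprr2 promoters were alike to unequal degrees. Over the printed windows, Sprr2d and Sprr2e were identical in 89.1% of aligned positions, Sprr2e and Sprr2f in 75.4%, Sprr2d and Sprr2f in 72.2%, and Sprr2b and Sprr2f in 63.3%. Sprr2i, a copy not well above background on any array, matched Sprr2f in 74.0%, about as closely as Sprr2e did. Sprr2a1 and Sprr2a2, the same as each other, matched Sprr2f in 46.2%, no more than Sprr1a did with 48.5%. The windows of Sprr2a1 and Sprr2a2 end with a stretch that in Sprr2b lies just before TATAAA, so they do not cover the matching bases. Their low match therefore does not measure how alike the promoters are. Levels are not comparable between probes, and how likeness of the windows relates to signal was not tested. Promoters were found for 14 family genes, 9 of them members, with none for Sprr2g.

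The printed promoters of Sprr2f, Sprr2d, Sprr2e and Sprr2b share a layout. Each has TATAAA with its first base at position -29 from the start site, the octamer ATGCAAAT on the minus strand from position -108, or -112 in Sprr2f, and TGAGTCA, an AP-1 element, from position -193 in Sprr2d and Sprr2e, -195 in Sprr2b and -197 in Sprr2f. Matches were sought on both strands. TATAAA was in 8 of 9 member promoters and in 13.6% of all 32851 promoters, the octamer in 5 of 9 and in 1.74%, and TGANTCA in 7 of 9 and in 7.81%. The member without TATAAA is Sprr2a1, whose window ends before the bases that match this part of Sprr2b. Several of these promoters are related copies, so these shares do not count independent sites.

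The SOX core ACAAT was in 5 of 9 member promoters, against 31.0% of all promoters. In Sprr2f it began at position -181 and in Sprr2b at -231, while the windows of Sprr2d and Sprr2e held none. The match was thus found with and without a high signal in Sox17ed/ed uteri, and it says nothing of whether SOX17 binds there. The ETS core AGGAAG was in 3 of 9 member promoters and in 35.4% of all. The full estrogen response element, the half-sites GGTCA and TGACC with 3 free bases between them, was in none of the 14 family promoters and in 0.07% of all promoters, and the GATA motif AGATAA was in none and in 11.2%. Absence from these windows says only that these letters are not there.

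**Figure D4:**
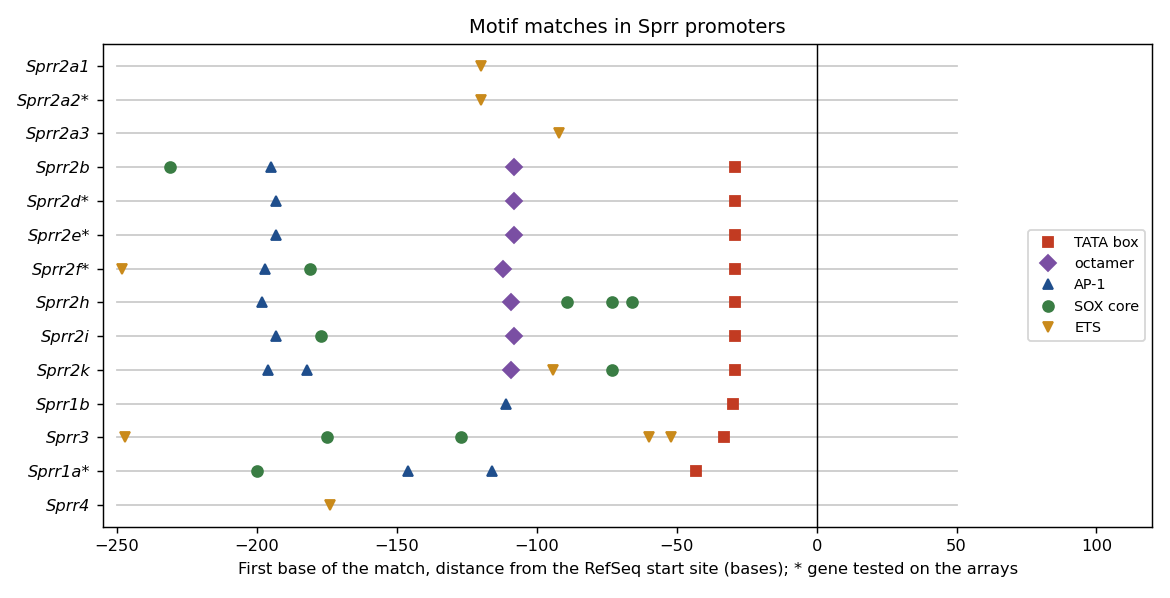
First base of each motif match in bases from the RefSeq start site (horizontal axis) in the 14 family promoters (rows, in gene order), with asterisks at genes compared on the arrays. Squares are TATAAA, diamonds the octamer, upward triangles TGANTCA, circles the SOX core and downward triangles the ETS core. Sprr2b, Sprr2d, Sprr2e, Sprr2f, Sprr2h, Sprr2i and Sprr2k share TATAAA at -29 with an octamer and an AP-1 element further out, and the circles differ from copy to copy.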

How the data were processed

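RNA of 3 Sox17f/f and 3 Sox17ed/ed uteri was hybridised to Agilent 1-colour arrays, 1 array per uterus as the labels number them. The deposited scanner files hold each spot's intensity as background-subtracted processed signal. Their headers name Feature Extraction 11.0.1.1, the submitters' processing notes 9.1. The deposited matrix of intensity values lay within 0.191% of the mean processed signals and was used as an alternative.

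Control spots and outlier spots (169 to 302 per array) were left out, spots of a probe averaged, and log2 values quantile normalized, as the study's methods state. Of 55681 probes, 26582 were named through their RefSeq accession in the GRCm38.p6 gene table. Probes well above background on at least 3 arrays, the brightest per gene, gave 14847 genes, fitted with limma 3.58.1 in R 4.3.3 (lmFit, eBayes). The thresholds were those of the methods, an unadjusted p under 0.01 and a fold of at least 1.4, which 897 genes passed upward and 960 downward. Adjusted p values are Benjamini-Hochberg over all 14847 genes. For a probe below background throughout 1 genotype, the at-least fold is taken against that genotype's mean floor, where an array's floor is its dimmest signal counted as above background, or the probe's signal if that is brighter. Such folds hold for the main processing and can be smaller with normexp. On simulated data with 14762 genes, the fit found 88 of 100 genes changed by 1 log2 unit and 100 of 100 changed by 2, and called 60 unchanged genes.

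The members and gene lists were chosen with earlier results of these data known. Named were every Sprr gene, Sox17, the 4 largest called differences of each list, Trp63, Ivl, Lor, Flg, Tgm1, Elf3, Ehf and the 5 genes nearest Sprr2f. Others are named only to complete a count of 5 or fewer, or to give the squamous and neutrophil markers that did not pass the thresholds. One gene that this rule names is not reported here. The normexp alternative used median signals, as mean signals were not used here. Promoters are RefSeq windows, aligned globally (Biopython 1.88; match 1, mismatch -1, gap opening -3, extension -1). Tables were read with pandas 2.3.3 and plotted with matplotlib 3.10.9. Precision is limited by the 3 arrays per genotype, and nothing in the labels says how far their spread is technical.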

Additional observations from a re-analysis of the deposited data

How the results depend on the processing

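Another scaling, normexp and the deposited values could move the Sprr differences, and 13 of 15 values for the 5 compared genes then moved by less than the spread between replicates, none changing sign. The other alternatives, apart from leaving out arrays, kept the Sprr differences by construction. The exceptions were Sprr2d at 0.75 and Sprr2e at 0.61 with normexp background correction, whose offset of 50 compresses dim signals, and neither gene is compared where all 6 arrays must be well above background. With normexp the envelope assembly genes past the thresholds were 3 in place of 5, and with the 6-array filter 3, while other genes of the complex fell from 1 to 0 there, since S100a14 is not well above background on every array. Normexp also ended the calls of Tgm1 (-0.38), Tgm5 (0.41), Sfn (0.32), Krt5 (0.99) and Col17a1 (0.24), and the 75th percentile shift those of Tgm5 (1.59) and Krt5 (2.60), and the cause was not tested. Normexp moved the markers past the thresholds to 1 for squamous, 1 for stroma and 2 for smooth muscle, and the 6-array filter took the squamous count to 0. Averaging the probes of a gene gave a squamous count of 5 in place of 3, and Sprr2a2 passed the thresholds, at 1.52. The squamous count rose through probes detected in Sox17ed/ed uteri alone, and the Sprr2a2 probes averaged disagreed.

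Leaving out 1 array at a time gave log2 differences of 0.40 to 1.30 for Sprr1a, 2.96 to 3.54 for Sprr2d, 2.88 to 3.13 for Sprr2e and 5.81 to 6.15 for Sprr2f. For Sprr2g they ran from -1.05 without Sox17f/f replicate 3 to -0.27 without replicate 2, and the ends of the Sprr1a range were without the same libraries. The counts past the thresholds ranged from 1662 to 2031 for all genes, 3 to 6 for envelope assembly (3 without Sox17ed/ed replicate 3), 1 to 2 for other genes of the complex (2 without Sox17f/f replicate 1), 10 to 12 for the regulators and 12 to 14 for the estrogen-responsive genes.

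Same-numbered arrays held the same place in the 2 lines of the slide. They correlated at 0.06, -0.11 and -0.00 in their deviations from the group means. With 3 arrays per genotype these values cannot exclude that replicate numbers pair the arrays. With the replicate number as a block, 1796 genes passed the thresholds against 1857, and the Sprr differences were the same by construction. The block ended the calls of Tgm5 (adjusted p = 0.0767), Krt5 and Krt8 (0.0792), whose causes were not tested. With normexp 1533 genes passed. Probes near the background, such as those of Sprr2d, Sprr2e and Sprr2h, give bounds in place of levels.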
